A study of Phaseolus coccineus with 4 samples.

Results

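SERK1 is the soybean gene symbol for a somatic embryogenesis receptor kinase, and its signal was measured here in the suspensor and the embryo proper of globular embryos of Phaseolus coccineus, the scarlet runner bean. Members were taken as every probe set whose symbol in the platform annotation is exactly SERK1, which gave 1 probe set (gene identifier 100305377), for 1 of 1003 gene symbols other than placeholders on the array. The gene was chosen with its signals on these arrays known, so its levels are described without a test. The samples were 2 of the suspensor and 2 of the embryo proper, cut by laser from sections of seeds fixed 6 days after hand pollination, all from the cultivar Hammond's Dwarf Red Flower. The RNA of each sample was amplified and hybridised to a soybean array. The samples of a region are labelled as biological replicates; the plants behind them and the number of embryos pooled in each are not given in the labels.

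Somatic embryogenesis receptor kinases are leucine-rich repeat receptor kinases of the cell surface. They take their name from carrot cultures, in which a SERK transcript marked cells competent to form embryos. In Arabidopsis they act as co-receptors: a receptor that has bound its steroid or peptide ligand pairs with a SERK protein, and both kinases then pass on the signal. Receptors known to use them there include the brassinosteroid receptor BRI1, receptors of phytosulfokine and other secreted peptides, and receptors acting ahead of the YODA MAP kinase cascade, which shapes early embryo and suspensor development. In a globular embryo the suspensor is the short-lived column of cells at the base, which anchors and feeds the embryo proper, from which the seedling forms.

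SERK1 gave a clear signal on every array and a weaker one in the suspensor. The signals were 8245 and 4002 on suspensor arrays 1 and 2, against 16217 and 18616 on embryo proper arrays 1 and 2. Both suspensor signals lay under both embryo proper signals, so the regions did not overlap. The mean was 6124 ± 3001 in suspensor and 17416.5 ± 1697 in embryo proper (SD, n = 2 each). On the log2(intensity + 16) scale the difference, suspensor minus embryo proper, was -1.59, a signal 3.02-fold higher in embryo proper. In dissected tissue, fewer cells that express a gene and less of its RNA per cell cannot be told apart. SERK1 here names a soybean probe set, and which bean transcript it reads was not tested.

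**Figure D1:**
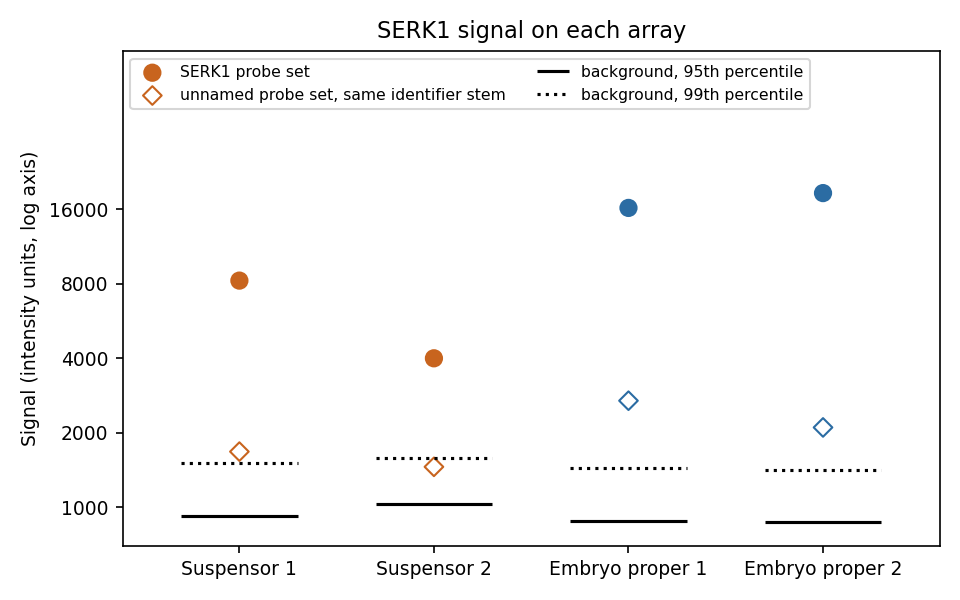
Signal of the SERK1 probe set (filled circles) and of the unnamed probe set with the same identifier stem (open diamonds) on each array, on a log2 axis of intensity units, suspensor in orange and embryo proper in blue. Solid and dotted bars mark background as the 95th and 99th percentiles of Phytophthora and nematode signals; SERK1 stands above both on all 4 arrays, at 4002 on its dimmest.

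The size of this difference is loosely fixed, because the suspensor arrays disagreed. Their SERK1 signals differed by 2.06-fold, against 1.15-fold between the embryo proper arrays. The gap between the nearest arrays of different regions, embryo proper 1 and suspensor 1, was 1.96-fold, slightly less than the gap within the suspensor. From the farthest arrays, embryo proper 2 and suspensor 2, the ratio was 4.64. Without suspensor array 1 the log2 difference was -2.11, and without suspensor array 2 it was -1.07.

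Against background, SERK1 was well detected in both regions. Probe sets for Phytophthora and a nematode, 23350 in all and made for organisms other than the bean, set the background: on each array it was their 95th percentile. SERK1 was 8.91 and 3.87 times that level on suspensor arrays 1 and 2, and 18.4 and 21.3 times on embryo proper arrays 1 and 2. With the 99th percentile as the level, it was still 5.44 and 2.53 times background in suspensor and 11.3 and 13.2 times in embryo proper. Of the Phytophthora and nematode probe sets, 4 and 11 were brighter than SERK1 on the suspensor arrays, against 2 and 2 on the embryo proper arrays.

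Among all 37593 soybean probe sets, ordered by signal, SERK1 was number 957 on suspensor array 1 and number 1414 on suspensor array 2, against 513 and 481 on embryo proper arrays 1 and 2. It therefore stood within the brightest 3.76% of soybean probe sets on each array, and within the brightest 1.36% on both embryo proper arrays. Of the soybean probe sets above background, 11.7% and 19.3% were brighter in suspensor and 5.86% and 5.56% in embryo proper. This rank orders signals, not transcript amounts, since probes differ in how well they bind and bean RNA can mismatch a soybean probe.

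The embryo proper side of the distribution held many probe sets besides SERK1. Across the 8972 soybean probe sets above background on at least 2 of 4 arrays, the median log2 difference was -0.18, with quartiles of -0.80 and 0.36. SERK1, at -1.59, was lower than most, but 800 probe sets, 8.92% of those tested, had a still lower value. Suspensor signals lay wholly under embryo proper signals in 33.4% of the tested probe sets and wholly above them in 19.8%. The gap of SERK1 between suspensor arrays was likewise not unusual: 23.0% of tested probe sets had a wider one.

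**Figure D2:**
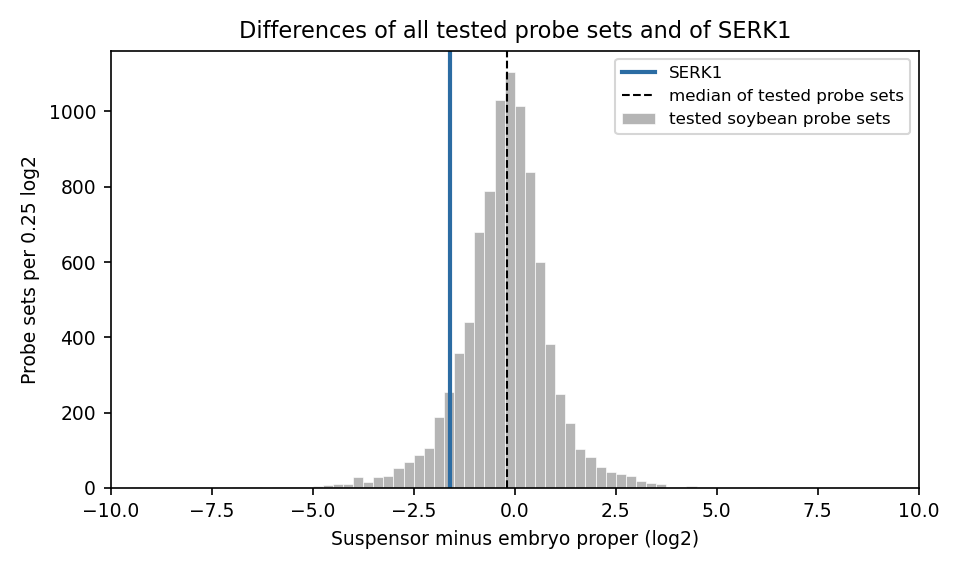
Histogram of the log2 difference, suspensor minus embryo proper, of the 8972 tested soybean probe sets, in bins of 0.25. The blue line marks SERK1 at -1.59 and the dashed line the median of all tested probe sets at -0.18; 8.92% of probe sets lie left of SERK1.

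Technical measures also moved with region. The input RNA was 106 and 137 ng for suspensor samples 1 and 2, against 60 and 75 ng for embryo proper samples 1 and 2, so input and region cannot be told apart. The median signal of the hybridisation spikes, control RNAs added during the array procedure, was 89954 and 153044 on the suspensor arrays and 42283 and 53752 on the embryo proper arrays. Soybean probe sets above background numbered 8180 and 7328 in suspensor and 8742 and 8634 in embryo proper. Suspensor array 2 thus had the most input RNA, the brightest spikes, the fewest probe sets above background and the lowest SERK1 signal. The part of these measures in the SERK1 difference was not tested. Of 20 marker symbols for embryo proper, suspensor, seed coat, endosperm and vascular tissue, the annotation held 1, the seed coat flavonoid enzyme ANR1, which was below background on all 4 arrays at 99 and 458 in suspensor and 291 and 197 in embryo proper. No marker of either embryo region was matched, so the region labels were not checked by markers.

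A further probe set shares the identifier stem of the SERK1 probe set and has no symbol in the annotation, so it is not counted as SERK1. It was singled out by its identifier, after its values were seen. Its signals were 1680 and 1458 on the suspensor arrays and 2697 and 2103 on the embryo proper arrays, all above the 95th percentile background. The suspensor signals were again both under the embryo proper signals, but the log2 difference was only -0.60 and did not pass in limma (adjusted p = 0.38). This probe set also stood much nearer to background, at 1.82 and 1.41 times in suspensor and 3.06 and 2.41 times in embryo proper.

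The comparison of suspensor with embryo proper was then examined for genes around SERK1: other receptor kinases, peptides, brassinosteroid and MAP kinase genes, proteins found with SERK1 in Arabidopsis, and embryo regulators. The 7 lists matched 36 gene symbols besides SERK1, of which 20 had a probe set above background on at least 2 arrays. No other SERK and no BAK1 symbol was matched. By the brightest probe set of each gene, limma called 1 of the 20 genes higher in suspensor, where the share over all tested probe sets was 0.892%, and 1 lower, where it was 1.86%; the other 18 did not pass. The median log2 difference of the 20 genes was -0.42, beside -0.18 over all tested probe sets. Suspensor signals lay wholly under embryo proper signals in 11 of the 20 and wholly above them in 2, where the shares over all tested probe sets were 33.4% and 19.8%. The 11 include BIN2, which entered the test by its embryo proper signals alone.

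Among receptors that pair with SERK proteins in Arabidopsis, the brassinosteroid receptor was the one with a symbol here, as BRI1B, and it was hardly detected. One of its 3 probe sets had signals of 22.2 and 517 in suspensor and 661 and 858 in embryo proper, below background on all 4 arrays. Another BRI1B probe set stood at 82.2 and 421 in suspensor and 1041 and 394 in embryo proper. It was above background on embryo proper array 1 alone, and the last BRI1B probe set was below background on all 4 arrays. A low signal on these probes does not show that the bean transcript is scarce, since a mismatch to the soybean sequence also lowers it.

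Phytosulfokine is a peptide hormone whose receptor also works with SERK proteins in Arabidopsis, and its precursor genes were represented by PSK1, PSK3 and PSK5. PSK5 had signals of 927 and 548 in suspensor, against 1208 and 1341 in embryo proper. The lower suspensor signal was below background, and no call was made at a log2 difference of -0.82 (adjusted p = 0.39). PSK1 and PSK3 were below background on all 4 arrays, with no signal above 493.5. CIF1 is a symbol that has been used for more than 1 kind of protein and so is given no role. Its brighter probe set had overlapping signals of 5815 and 3142 in suspensor and 6107 and 4489 in embryo proper (adjusted p = 0.71). Its dimmer probe set was below background on all 4 arrays.

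None of the 4 other receptor kinases with a signal was called. RLK1, a receptor-like kinase, had signals of 1507 and 726 in suspensor, the second below background, against 3204 and 3495 in embryo proper. Its log2 difference of -1.66 resembled that of SERK1 and did not pass (adjusted p = 0.099). RLK3, a further receptor-like kinase, stood at 1840 and 1335 in suspensor and 3817 and 5727 in embryo proper, a log2 difference of -1.57 (adjusted p = 0.08). It passed when only probe sets above background on all 4 arrays were tested (adjusted p = 0.011). With background at the 99th percentile it also passed (adjusted p = 0.042). Both settings test fewer probe sets, and the cause of these passes was not tested.

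PERK1, a kinase of a family with a proline-rich, extensin-like outer domain, had 1588 and 1779 in suspensor against 2618 and 3301 in embryo proper. The regions did not overlap, but at a log2 difference of -0.80 the gene was not called (adjusted p = 0.26). A further PERK1 probe set was above background on embryo proper array 2 alone. RLK2, whose other probe sets were below background on every array, did overlap. It had 1249 and 1873 in suspensor and 1471 and 1888 in embryo proper (adjusted p = 0.89). All 4 had a negative difference, as did 59.2% of all tested probe sets, with a median of -1.18 beside -0.18 over all tested, and 3 of the 4 did not overlap between regions, where 33.4% of tested probe sets lay wholly lower in suspensor. The sign of RLK2 is not stable: its log2 difference was 0.06 without embryo proper array 2 and 0.17 without suspensor array 1. NARK and CLV1A, soybean kinases related to the Arabidopsis stem cell receptor CLAVATA1, were below background on every array, as were LRK1, CRK5, CRK11, CRK39 and CRK84.

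**Figure D3:**
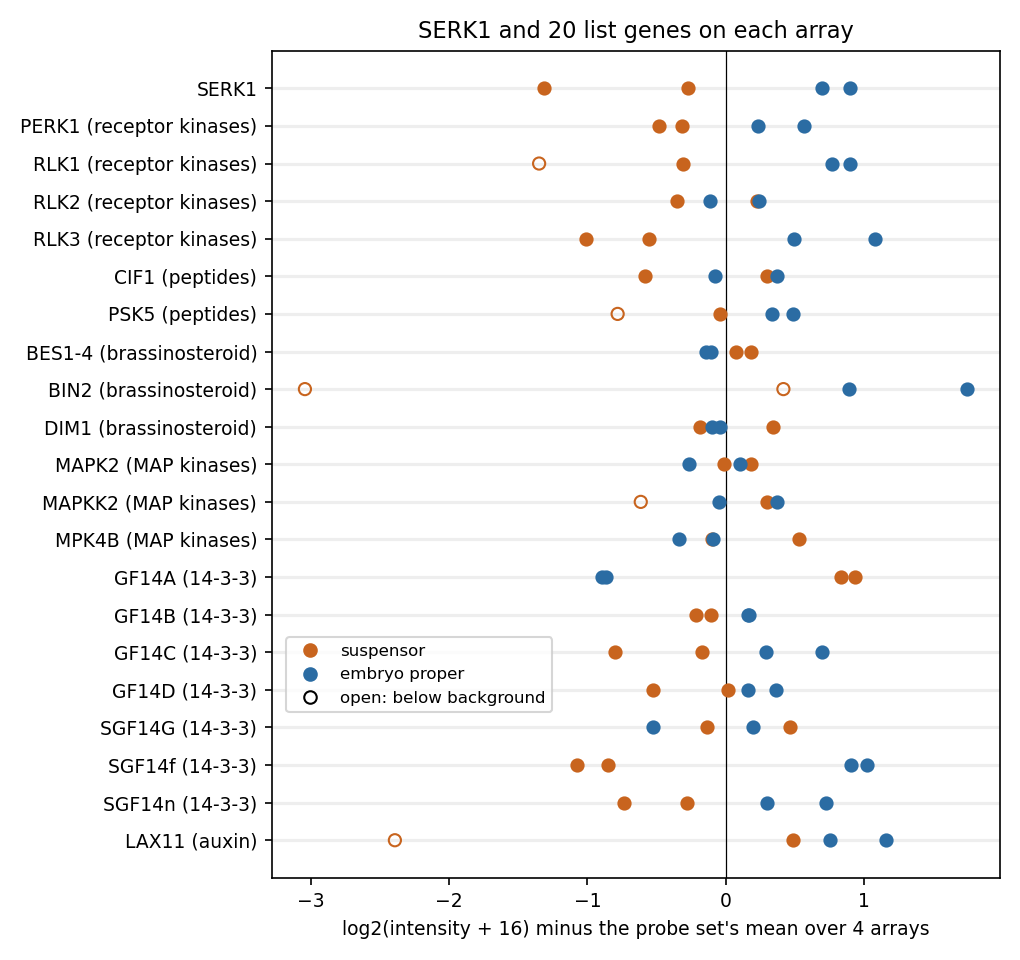
Values of SERK1 and of the 20 tested list genes, by the brightest probe set of each gene, as log2(intensity + 16) minus the probe set's mean over 4 arrays (x axis), with suspensor arrays in orange, embryo proper arrays in blue and open points below background. Suspensor points lie wholly left of embryo proper points in 11 of the 20 list genes, against 33.4% of all tested probe sets, and wholly right in 2, BES1-4 and GF14A, against 19.8%. Names in brackets are the groups of the lists, and for CIF1 the name peptides marks its list, not a role.

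Brassinosteroid genes showed no common direction. BIN2, a kinase that holds brassinosteroid responses down, had signals of 711 and 50.2 in suspensor, both below background, against 991 and 1803 in embryo proper. Taking for each suspensor array the lowest soybean signal above background, embryo proper was at least 1.36-fold higher, without passing (adjusted p = 0.31). BIN2 entered the test by its embryo proper signals alone, so this direction is not independent of the filter. BES1-4, a transcription factor that acts at the end of the pathway, stood at 1939 and 2096 in suspensor and 1706 and 1663 in embryo proper, a log2 difference of 0.26 (adjusted p = 0.71).

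DIM1, a sterol reductase of brassinosteroid synthesis, was above background by a pair of probe sets that differed. The brighter had overlapping signals of 17129 and 11872 in suspensor and 12626 and 13135 in embryo proper (adjusted p = 0.83). The dimmer had 4853 and 4979 in suspensor against 1195 and 3049 in embryo proper, or 1.36 on the log2 scale, without passing (adjusted p = 0.19). Both have shared probes by their identifier suffix, so each may read more than 1 transcript. CYP90A15, of the cytochrome family that makes brassinosteroids, was above background on embryo proper array 2 alone, and BES1-12 on none.

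Of the 3 MAP kinase genes, none was called and each had overlapping signals in the regions. MAPK2 stood at 4507 and 3924 in suspensor and 4265 and 3298 in embryo proper (adjusted p = 0.81). MPK4B had 4032 and 2603 in suspensor and 2200 and 2604 in embryo proper (adjusted p = 0.53). The upstream kinase MAPKK2 had 883 and 1674 in suspensor, the first below background, and 1315 and 1760 in embryo proper (adjusted p = 0.73). No YODA symbol was matched.

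Proteins isolated together with SERK1 from Arabidopsis include 14-3-3 proteins, which bind phosphorylated partners, and the ATPase CDC48. Both calls among the 20 genes were 14-3-3 proteins, in opposite directions. The probe sets called have shared probes by their identifier suffix, so each may read more than 1 transcript. SGF14f fell to 3765 and 3212 in suspensor, against 12754 and 13809 in embryo proper, a log2 difference of -1.93 (adjusted p = 0.025). The other SGF14f probe set was below background on every array and was not tested. Its signals overlapped, at 824 and 338.5 in suspensor and 404.3 and 426.7 in embryo proper. GF14A rose to 6312 and 5875 in suspensor, against 1762 and 1802 in embryo proper, a log2 difference of 1.76 (adjusted p = 0.038). Each call was lost without a variance trend (adjusted p = 0.085 for SGF14f and 0.098 for GF14A), and without either embryo proper array, where adjusted p lay between 0.2 and 0.29. Centring arrays on the Phytophthora and nematode probe sets also lost GF14A (adjusted p = 0.084). No other GF14A probe set was called. A dimmer probe set had 2890 and 3078 in suspensor against 1805 and 732 in embryo proper (adjusted p = 0.19). A still dimmer probe set overlapped, at 2134 and 1186 in suspensor and 1258 and 852 in embryo proper (adjusted p = 0.49). The rest were below background on every array. Among them, a probe set lay lower in suspensor, at 16.3 and 106.5 against 447.6 and 555.3, and the last overlapped.

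GF14C had a log2 difference of -0.98 by its brightest probe set (adjusted p = 0.21), with 100717 and 65107 in suspensor against 138728 and 183789 in embryo proper. Its dimmer probe set, also with shared probes by its suffix, had 15494 and 9766 in suspensor against 44926 and 40876 in embryo proper. It was called lower in suspensor, at a log2 difference of -1.80 (adjusted p = 0.043). That call was lost without a variance trend (adjusted p = 0.12), with Phytophthora and nematode centring (adjusted p = 0.065) and without either embryo proper array (adjusted p = 0.34 and 0.32). SGF14n had 966 and 1335 in suspensor against 2685 and 1992 in embryo proper, a log2 difference of -1.02 (adjusted p = 0.22). CDC48 was below background on all 4 arrays, between 118 and 434. Embryo regulators were poorly covered: LEC1-A, a factor of embryo identity, and PIN2A, an auxin efflux carrier, were below background on all 4 arrays. LAX11, of the auxin influx carrier family, stood at 128 and 1040 in suspensor, the first below background, against 1254 and 1660 in embryo proper (adjusted p = 0.32).

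The genes most like SERK1 over the 4 arrays were sought among 427 other tested probe sets with 1 symbol that is no placeholder. Likeness was the root-mean-square difference of log2(intensity + 16) values, each probe set centred on its own mean, so a smaller value is a closer match of shape and says nothing of amount. The closest was RLK1, at 0.043, with 1 of its 4 signals, on suspensor array 2, below background. Values below background entered the measure as they were, so the order of likeness is approximate. Centred on its mean, SERK1 stood at -0.28 and -1.32 in suspensor and 0.70 and 0.90 in embryo proper, and RLK1 at -0.31 and -1.35 in suspensor and 0.77 and 0.89 in embryo proper. The median over all tested probe sets was 0.878.

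Next came DHBK at 0.102, CGS2, a cystathionine synthase of methionine synthesis, at 0.148, GF14C by its dimmer probe set at 0.205, and SPCP1 at 0.206. That their regions, like those of SERK1, did not overlap follows from the way they were chosen. DHBK was below background on both suspensor arrays, at 443 and 209.5, against 1058 and 1123 in embryo proper. This DHBK probe set entered the test by its embryo proper signals alone, so its direction is not independent of the filter. CGS2 was bright on all 4 arrays, at 23552 and 14186 in suspensor and 44392 and 60791 in embryo proper. SPCP1 stood at 2020 and 998 in suspensor, the second below background, against 4425 and 3470 in embryo proper. The dimmer GF14C probe set is the one called above.

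Such matches over 4 arrays are weak descriptions. A total of 149 tested probe sets matched SERK1 more closely than SPCP1 did. Other probe sets of the same genes matched less well: 4 of DHBK lay between 0.495 and 0.85, 2 of CGS2 at 0.545 and 1.82, 1 of GF14C at 0.348 and 3 of SPCP1 between 0.732 and 1.73. Their directions also differed. The log2 differences of these other probe sets were -0.45, -0.70, -0.89 and 0.08 for DHBK and -1.17 and 1.61 for CGS2. They were -0.98 for GF14C and 0.73, 1.56 and -0.15 for SPCP1. At 0.73, 1.56 and 1.61, suspensor signals lay wholly above embryo proper signals, though none was called. At 1.56 and 1.61, some signals were below background. RLK1 had no other tested probe set.

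**Figure D4:**
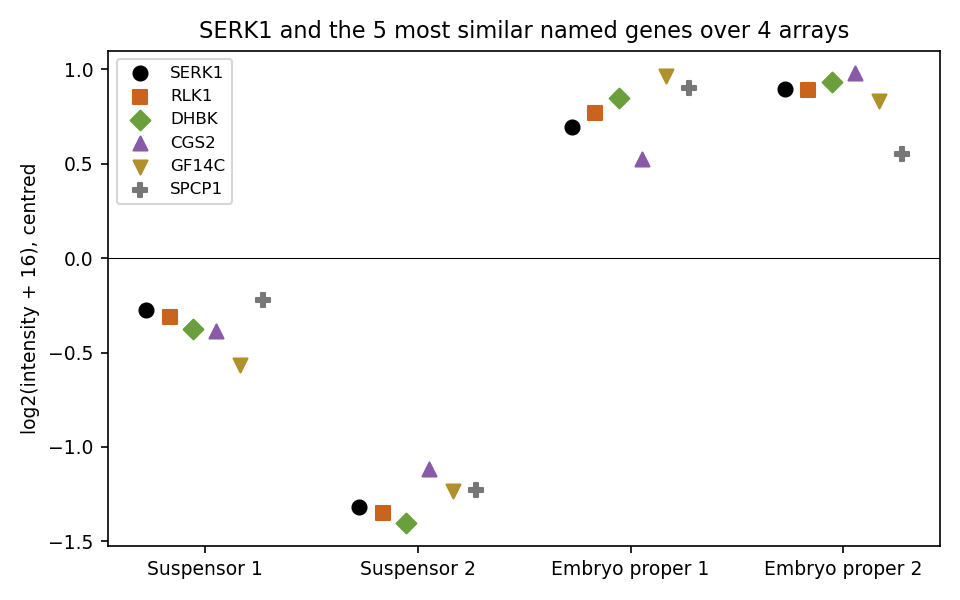
Centred log2(intensity + 16) values (y axis) of SERK1 and the 5 most similar named genes on each of the 4 arrays (x axis), offset sideways for sight. Suspensor array 2 is the lowest for all 6 genes, and RLK1 follows SERK1 most closely, at -1.35 beside -1.32 on that array.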

How the data were processed

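The authors deposited 1 intensity per probe set and array, on a linear scale, using GCOS 1.3 according to the submitters' processing notes; which summary algorithm it ran is not given in the sources used here. With the brightest and dimmest 2% of probe sets removed, all arrays had a mean of 500, so the values appear globally scaled. Per the labels' protocols, about 200 ng of cDNA from amplified RNA was used for labelling. Depth does not apply to arrays; their number, 2 per region, limits the precision, and p-values reflect no more than the spread of these samples, which may be technical.

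Differences between regions, suspensor minus embryo proper, were fitted on log2(intensity + 16) by limma 3.58.1 (R 4.3.3; lmFit, then eBayes with its trend option). The 8972 soybean probe sets exceeding background on 2 or more arrays were tested, with Benjamini-Hochberg adjustment and a threshold of 0.05. Folds on this scale understate changes of dim probe sets. The fit was tested on simulated data. No paired fit was used as the main one, since the labels do not explain a shared replicate number; deviations of same-numbered arrays had a correlation of -0.024 across probe sets.

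The members and lists were chosen with earlier results of these data known. Named were SERK1, every tested gene of a list with at most 6 of them and otherwise the 4 with the smallest p, and the 5 genes most like SERK1. Symbols came from the platform annotation; 4 probe sets with several symbols were left out of the lists. None of the 34063 bean genes of the reference assembly Pcoc_1 matched SERK1 by symbol or identifier, so no position or sequence is given. Alternatives covered pseudocount, normalization, centring, background, filter, variance trend, replicate block and leaving out each array.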

Additional observations from a re-analysis of the deposited data

How the results depend on the processing

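The SERK1 log2 difference, -1.59, stayed between -1.76 and -1.36 under other pseudocounts, quantile normalization and both centrings, which moved the median of all tested probe sets between -0.35 and -0.062. It ranged from -2.11 to -1.07 when 1 array was left out. The fit over all tested probe sets called 80 higher and 167 lower in suspensor. Quantile normalization gave 186 and 231. Centring gave 129 and 196 by tested probe sets and 48 and 154 by Phytophthora and nematode probe sets. Stricter filters, which test fewer probe sets, gave 134 and 293 (99th percentile background) and 192 and 334 (all 4 arrays above background). Dropping the variance trend gave 21 and 66, and the replicate block 138 and 292. Leaving out each array in turn, with the lone array assumed to vary like the other region, gave 3 to 153 and 3 to 1054. The cause was not tested for the normalization, centring, filters, trend and block. Of the 20 list genes, 1 was called higher and 1 lower. These counts were 0 and 1 with Phytophthora and nematode centring, 0 and 0 without a variance trend, 1 and 2 with either stricter filter, 1 and 1 with the replicate block, and 0 to 1 and 0 to 5 with an array left out. Without suspensor array 1, log2 differences were -2.18 for RLK1, -1.80 for RLK3, -4.35 for BIN2 and -1.29 for the brightest GF14C probe set. These rest on suspensor array 2 alone, where RLK1 and BIN2 were below background. Signs turned only in small differences that were not called. With Phytophthora and nematode centring DIM1 stood at -0.019 and MAPK2 at -0.0012. With an array left out, values ranged from -0.0202 to 0.35 for MAPK2, -0.035 to 0.69 for SGF14G, -0.41 to 0.17 for RLK2, -0.12 to 0.41 for DIM1, -0.77 to 0.14 for MAPKK2 and -0.73 to 0.15 for CIF1; RLK2 was 0.06 without embryo proper array 2. Signal over background limits the rest: 16 of the 36 list genes had no probe set above background on 2 arrays.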

Other observations

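After the annotation had been read, 3 further symbols near SERK1 were looked up. KAPP1, a phosphatase that in Arabidopsis binds SERK1 and other receptor kinases, had signals of 1880 and 1711 in suspensor, against 1100 and 968 in embryo proper, all above background. Both suspensor signals were above both embryo proper signals, the opposite side to SERK1. The same held for 19.8% of all tested probe sets. The KAPP1 log2 difference of 0.79 did not pass in limma (adjusted p = 0.3). SARK, a senescence-associated receptor kinase, and BEHL1, named as a relative of BES1, were below background on all 4 arrays by each of their probe sets.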
